A study of Mus musculus with 10 samples.

Results

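The 8 genes described here are the core H3K9 methylation genes Suv39h1, Suv39h2, Setdb1, Ehmt1, Ehmt2, Cbx1, Cbx3 and Cbx5, chosen by symbol. All 8 were found, each as 1 transcribed unit (TU, a stretch of continuous nascent transcription on 1 strand), among 16137 TUs with a gene symbol and 40779 TUs in all, and all 8 passed the filter on low counts. They were followed together with the 17 TUs that overlap them on the opposite strand, because Suv39h1 rose in these libraries while a long TU opposite to it fell. The question was whether that rise is shared by the related genes, and by other genes with an opposite-strand TU.

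Methylation of lysine 9 of histone H3 marks silent chromatin. SUV39H1 and SUV39H2 write the trimethylated state at constitutive heterochromatin, SETDB1 writes it at retroelements and imprinted regions, and EHMT1 (GLP) and EHMT2 (G9a) form a complex that writes the mono- and dimethylated states in euchromatin. The heterochromatin protein 1 (HP1) paralogues CBX1 (HP1 beta), CBX3 (HP1 gamma) and CBX5 (HP1 alpha) bind the methylated tail through their chromodomain. In mouse embryonic stem cells this system keeps many retroelements silent.

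Nascent RNA was measured by TT_chem-seq, in which a short pulse of 4-thiouridine tags new RNA, which is broken up, pulled down and read by strand, so that a TU covers introns and exons alike. The cells were mouse embryonic stem cells (mESC) of the E14 line (IB10 in the methods of the study), grown in serum-free medium with LIF and inhibitors of MEK and GSK3, and they carry an FKBP degron on Sox2. Homozygous clones were picked after targeting, and how many clones these libraries come from is not given in the sources used here. In all 10 libraries the cells took up 4-thiouridine (2 mM) over 10 min. Per the labels they form 5 groups of 2: cells not treated with the degrader (NT, given DMSO) and cells given 500 nM dTAG-13 for 0.5, 1, 2 or 6 h (hours post depletion, hpd), which sends tagged SOX2 to the proteasome. Untagged cells given dTAG-13 were not analysed here. Nothing states that the replicates came from separate cultures, so p-values measure the spread between these libraries, which may be technical.

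Library totals were 11131490 to 25854106 fragments. CPM below are fragment counts per TU relative to the TMM-scaled size of the library, and no spike-in entered this scaling. Every change is thus relative to the other TUs of the library, and a change in total transcription would not be seen. All 8 stem cell markers checked had a TU, with a summed level of 4157 to 4537 CPM in NT and 3516 to 3765 CPM at 6 hpd. Their single log2 fold changes at 6 hpd ran from -1.04 (Klf4) to 0.01 (Tfcp2l1). Markers of other cell types (8 of 11 with a TU, T, Sox1 and Col1a2 with none) summed to 15.3 to 20.6 CPM in NT, at most 28.7 CPM at 0.5 hpd and 19.8 to 23.4 CPM at 6 hpd, mostly from Eomes and Pax6, and their part in the results was not tested. In such bulk samples fewer cells of a type and less RNA per cell cannot be told apart. The TU of Sox2 itself stood at 243 and 283 CPM in NT and at 271 and 278 CPM at 6 hpd, and SOX2 protein, the target of dTAG-13, is not measured by these libraries.

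The Suv39h1 TU lies on the minus strand of the X chromosome (mm10, X 8049887 to 8074603, 24717 bp). The RefSeq gene spans 8061171 to 8074760, so that the TU runs 11284 bp past the annotated end of the gene. The opposite-strand TU (X 8048533 to 8079798, plus strand, 31266 bp) has no gene symbol and is annotated by the authors as antisense to a gene body. It starts 1354 bp beyond the end of the Suv39h1 TU, which is 12638 bp beyond the RefSeq end of the gene, covers 100% of the Suv39h1 TU and runs 5195 bp past its start.

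**Figure D1:**
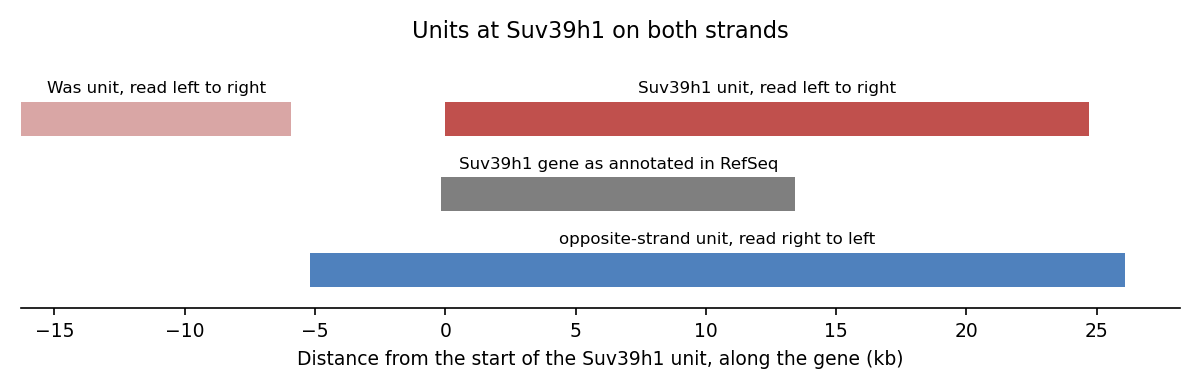
Map of the TUs at Suv39h1, with distance from the start of the Suv39h1 TU in kb on the x axis. Bars are the Suv39h1 and Was TUs (read left to right), the Suv39h1 gene of RefSeq and the opposite-strand TU (read right to left), which spans the whole 24717 bp of the Suv39h1 TU.

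The Suv39h1 promoter and the start of the opposite-strand TU are shown because the levels of the 2 TUs moved in opposite directions. Below, the 250 bases before the outermost RefSeq start of Suv39h1 (chrX:8074761-8075010, minus strand, outside any RefSeq gene, with the start of the TU itself further downstream at 8074603) are followed by 300 bases at the start of the opposite-strand TU, 250 of them before it (chrX:8048283-8048582, plus strand, outside any RefSeq gene). The third is the same window at the start of the TU opposite Top1, the other such pair considered (chr2:160656209-160656508, minus strand, within an intron of Top1). The reference is GRCm38.p6, which has the coordinates of mm10, and capitals mark matches to a SOX core motif, CATTGT on either strand.
Suv39h1 promoter: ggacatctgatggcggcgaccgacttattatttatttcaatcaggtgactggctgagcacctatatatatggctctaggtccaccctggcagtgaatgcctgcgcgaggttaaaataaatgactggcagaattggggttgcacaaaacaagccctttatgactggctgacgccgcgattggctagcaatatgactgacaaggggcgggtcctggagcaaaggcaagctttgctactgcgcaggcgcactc
TU opposite Suv39h1: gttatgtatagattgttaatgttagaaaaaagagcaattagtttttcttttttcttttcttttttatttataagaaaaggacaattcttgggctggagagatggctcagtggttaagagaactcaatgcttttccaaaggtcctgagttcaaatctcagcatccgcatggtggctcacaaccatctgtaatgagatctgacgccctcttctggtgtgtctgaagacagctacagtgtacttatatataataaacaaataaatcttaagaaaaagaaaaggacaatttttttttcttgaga
TU opposite Top1: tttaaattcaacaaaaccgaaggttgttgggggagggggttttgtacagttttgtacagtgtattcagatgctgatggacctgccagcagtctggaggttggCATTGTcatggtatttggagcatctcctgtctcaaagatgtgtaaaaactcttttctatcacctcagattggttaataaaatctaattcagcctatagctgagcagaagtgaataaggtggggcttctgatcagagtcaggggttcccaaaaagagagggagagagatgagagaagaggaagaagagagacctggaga

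The Suv39h1 promoter stretch had a GC content of 51.6%, against 34% for the window at the opposite-strand TU, of which 88.7% is masked as repeat in the reference (median over tested TUs without a symbol, 24%). The SOX core was absent from the 12 promoter windows of 300 bases that RefSeq gives for the 8 genes, as was the octamer bound by OCT4, ATGCAAAT on either strand. Over all 32851 RefSeq promoter windows 12.6% held the SOX core and 1.74% the octamer, and over the start windows of 13462 tested TUs without a symbol 11.4% and 2.5% did. The window at the TU opposite Suv39h1 held neither, and that opposite Top1 held 1 SOX core. Both windows were placed by the start of the TU and not by open chromatin. At the start of the Suv39h1 antisense transcript the study shows open chromatin that disappears after SOX2 depletion. Whether the window covers that region was not examined. The motifs were chosen with these windows known.

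Suv39h1 transcription rose between 0.5 and 1 hpd and then held its level, while the opposite-strand TU was already below NT at 0.5 hpd and went on falling. These 2 TUs were chosen for this pattern in the same libraries, so their values are a description and no test is given. Suv39h1, a writer of H3K9 trimethylation, stood at 42.9 and 38.9 CPM in NT replicates 1 and 2, at 43.6 and 42.5 CPM at 0.5 hpd, at 56.1 and 54.8 CPM at 1 hpd, at 56.2 and 53.8 CPM at 2 hpd and at 60.3 and 57.4 CPM at 6 hpd, from 497 to 1118 fragments per library. The libraries at 1, 2 and 6 hpd all lay above both NT libraries, and those at 0.5 hpd overlapped NT. The log2 fold change against NT was 0.08 ± 0.10 (SE of the edgeR fit, n = 2 against 2) at 0.5 hpd. It was 0.44 ± 0.10 at 1 hpd and 0.43 ± 0.10 at 2 hpd, and reached 0.52 ± 0.10, or 1.44-fold, by 6 hpd. From 1 to 6 hpd the log2 difference was 0.09 ± 0.10.

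The opposite-strand TU stood at 71.2 and 69.3 CPM in NT, at 34.6 and 30.8 CPM at 0.5 hpd, at 16.0 and 17.3 CPM at 1 hpd, at 14.1 and 14.7 CPM at 2 hpd and at 8.50 and 10.9 CPM at 6 hpd, from 1058 to 121 fragments. The 5 groups did not overlap, each lying below the group before it. Relative to NT its log2 fold changes were -1.099 ± 0.12, -2.08 ± 0.13, -2.29 ± 0.13 and -2.85 ± 0.13, in order of time. Over the alternative settings the log2 value at 6 hpd ranged from -3.05 to -2.68 for this TU and from 0.44 to 0.61 for Suv39h1. The latter lay between 0.35 and 0.53 at 1 hpd, and between 0.31 and 0.50 at 2 hpd.

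**Figure D2:**
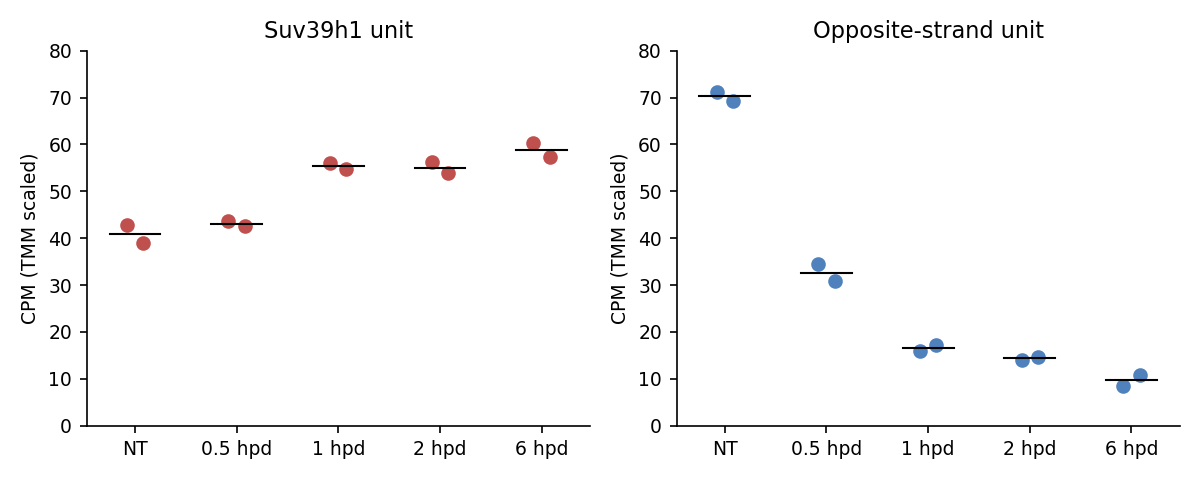
CPM (TMM scaled) of the Suv39h1 TU and of the TU on its opposite strand, by group. Points are the 2 libraries of each group and lines their mean. Suv39h1 went from 38.9 to 42.9 CPM in NT to 57.4 to 60.3 CPM at 6 hpd, and the opposite TU from 69.3 to 71.2 CPM to 8.50 to 10.9 CPM.

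The balance of the strands had turned by 0.5 hpd. Of the fragments counted in either TU, the Suv39h1 strand held 37.6% (95% exact binomial interval 35.3 to 39.9) and 35.9% (33.5 to 38.4) in NT. It held 55.8% (53.6 to 58.0) and 58.0% (54.6 to 61.3) at 0.5 hpd, and 77.8% (75.3 to 80.2) and 76.0% (73.6 to 78.4) at 1 hpd. At 6 hpd the share was 87.7% (85.4 to 89.6) and 84.0% (81.8 to 86.1). These intervals cover counting error only. The sum over both strands fell from 111 ± 4.16 CPM (SD, n = 2) in NT to 75.8 ± 3.47 CPM at 0.5 hpd and 68.5 ± 0.42 CPM at 6 hpd, so that the gain on the Suv39h1 strand was smaller than the loss on the other.

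In the model of all 10 libraries none of the other 7 genes was called at any time point in either direction (Benjamini-Hochberg adjusted p under 0.05 in edgeR's quasi-likelihood test, adjusted over 28459 tested TUs). Of all tested TUs, the share called up was 0.527%, 2.15%, 4.26% and 6.61% in order of time, and the share called down was 0.787%, 3.61%, 5.57% and 9.20%. An unadjusted p under 0.05 was reached by 0, 1, 2 and 1 of the 7 genes in the same order, beside 9.61%, 18.0%, 24.7% and 30.6% of all tested TUs, and DESeq2 called 0 of them at each time point. Other settings called up to 2 of the 7 up at a time point, Ehmt1 and Cbx5, and 1 down, Cbx3. The median log2 fold change of the 7 was 0.07, 0.20, 0.12 and 0.22 at 0.5, 1, 2 and 6 hpd, beside 0.01, 0.02, 0.05 and 0.07 over all TUs with a symbol. Of the 7, 6 had a value above 0 at each time point, and Cbx3 a value below 0. Their SEs were 0.10 to 0.13, so a missing call does not show that a gene did not change, and whether Suv39h1 differed from its relatives was not tested.

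Suv39h2, the paralogue of Suv39h1, stood at 44.4 and 41.4 CPM in NT and at 45.7 and 41.3 CPM after 0.5 h. Its later values were 50.1 and 48.3 CPM (1 hpd), 50.9 and 44.3 CPM (2 hpd), and 53.0 and 47.9 CPM (6 hpd). Its libraries at 1 and 6 hpd lay above NT, and those at 0.5 and 2 hpd overlapped NT. In log2 terms it stood 0.20 ± 0.11 above NT at 1 hpd (adjusted p = 0.38, edgeR) and 0.23 ± 0.11 above it at 6 hpd (adjusted p = 0.18, edgeR). Setdb1 stood at 188 and 200 CPM in NT, 233 and 218 CPM after 0.5 h, 223 and 225 CPM after 1 h, 222 and 198 CPM after 2 h and 196 and 215 CPM after 6 h. Both libraries lay above NT at 0.5 and 1 hpd, and the groups overlapped at 2 and 6 hpd. Its log2 fold change of 0.22 ± 0.10 at 0.5 hpd (adjusted p = 0.54, edgeR) was the highest of the 8 genes at that time, and it was 0.21 ± 0.10 at 1 hpd, 0.12 ± 0.10 at 2 hpd and 0.08 ± 0.10 at 6 hpd (adjusted p = 0.31, 0.54 and 0.63, edgeR).

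For the partners of the G9a-GLP complex, Ehmt1 stood at 179 and 159 CPM in NT, and at 220 and 200 CPM (1 hpd), 235 and 182 CPM (2 hpd), and 192 and 212 CPM (6 hpd). All of its libraries from 1 hpd on lay above NT. Its log2 fold changes at these time points were 0.31 ± 0.13, 0.31 ± 0.13 and 0.26 ± 0.13 (adjusted p = 0.20, 0.15 and 0.19, edgeR), and it was called at 2 hpd when 2 hpd replicate 2 was left out (0.46) and at 1 hpd with only the libraries compared (0.34). Ehmt2 stood at 52.0 and 47.9 CPM in NT, and at 52.4 and 58.8 CPM (0.5 hpd), 56.3 and 47.5 CPM (1 hpd), 49.0 and 54.2 CPM (2 hpd), and 62.2 and 54.0 CPM (6 hpd). Its libraries at 0.5 and 6 hpd lay above NT and those at 1 and 2 hpd overlapped it. Its log2 fold change was 0.05 ± 0.12 at 1 hpd and 0.22 ± 0.12 at 6 hpd (adjusted p = 0.86 and 0.24, edgeR).

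Among the HP1 genes, Cbx5 came nearest to a call. It stood at 175 and 166 CPM in NT. In depleted cells it stood at 204 and 180 CPM (0.5 hpd), 212 and 190 CPM (1 hpd), 223 and 194 CPM (2 hpd), and 222 and 198 CPM (6 hpd), above NT in all 8 libraries. Its log2 fold changes from 1 hpd on were 0.24 ± 0.11, 0.29 ± 0.11 and 0.30 ± 0.11 (adjusted p = 0.29, 0.13 and 0.088, edgeR), and at 6 hpd it was called without 2 hpd replicate 1 (0.30) and without 2 hpd replicate 2 (0.32). With only the libraries compared it was called at 1 hpd (0.26) and 6 hpd (0.32). Cbx1 stood at 194 and 180 CPM in NT and 199 and 190 at 6 hpd, and Cbx3 at 149 and 139 CPM in NT and 146 and 138 at 6 hpd. Both pairs overlapped NT, their log2 fold changes being 0.06 ± 0.12 and -0.02 ± 0.10 (adjusted p = 0.78 and 0.92, edgeR), the former turning negative with scaling to total counts and the latter positive under DESeq2.

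To ask whether a change at 1 hpd still stood later, 6 hpd was set directly against 1 hpd. None of the 7 genes was called in this contrast, in which 1.96% of TUs were called higher and 2.92% lower (2.98% and 3.32% of those with a symbol), none had an unadjusted p under 0.05, and DESeq2 called none. Their log2 differences ran from -0.13 (Setdb1) to 0.16 (Ehmt2).

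**Figure D3:**
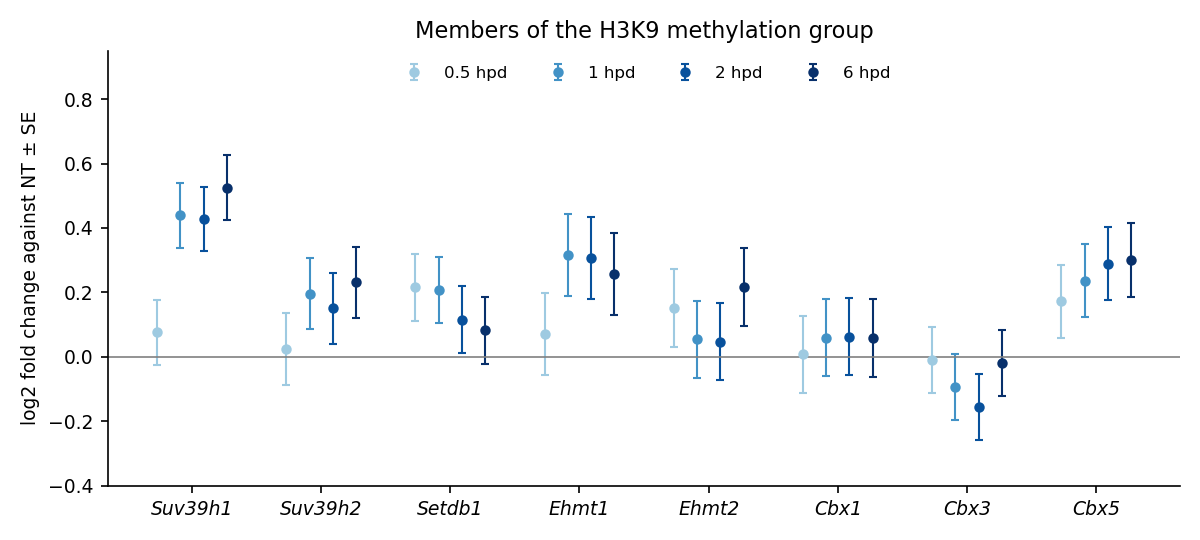
Log2 fold change against NT (edgeR) of the 8 genes at 0.5, 1, 2 and 6 hpd, with bars of 1 SE (n = 2 against 2). Suv39h1 stood at 0.43 to 0.52 from 1 hpd on, and the highest value of any other gene was 0.31 (Ehmt1 at 1 hpd).

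Per length, the 8 genes fell into a high and a low set. The length is that of the called TU, which for Suv39h1 includes 11284 bp past the RefSeq end. For Cbx3 it includes the stretch from 51458378 to the RefSeq starts at 51470616 and 51471252. The values and their order therefore depend on how the TUs were called. In NT the level per kb of TU was 5.35 ± 0.28 CPM (SD, n = 2) for Cbx1, 4.60 ± 0.22 for Cbx3, 4.58 ± 0.19 for Setdb1 and 4.34 ± 0.15 for Cbx5, followed by 1.65 ± 0.11 for Suv39h1, 1.55 ± 0.09 for Ehmt2, 1.24 ± 0.10 for Ehmt1 and 1.22 ± 0.06 for Suv39h2. Cbx3 and Setdb1, Cbx3 and Cbx5, Suv39h1 and Ehmt2, and Ehmt1 and Suv39h2 overlapped between their 2 libraries and were not told apart. At 6 hpd Suv39h1 had moved to 2.38 ± 0.09 CPM per kb, apart from Ehmt2 at 1.80 ± 0.18, and still below Cbx3 at 4.53 ± 0.17.

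The other 7 genes have 16 opposite-strand TUs, of which 12 passed the filter. Of the tested TUs, 5 are genes. Dclre1c, a nuclease of DNA repair and V(D)J recombination, covers 88.1% of Suv39h2. Cers2, a ceramide synthase, covers 76.1% of Setdb1, and Nfe2l1, a transcription factor of proteasome genes, 80.9% of Cbx1. Hnrnpa2b1, an RNA-binding protein, covers 38.7% of the Cbx3 TU, and Gm40706, a predicted gene, 12.5% of Ehmt2. The Hnrnpa2b1 TU ends at 51470503 on chromosome 6, before the RefSeq starts of Cbx3 (51470616 and 51471252). It thus overlaps only the part of the Cbx3 TU that lies upstream of these starts. Their levels in NT were 37.0 and 31.2 CPM for Dclre1c, 38.6 and 41.0 for Cers2, 137 and 126 for Nfe2l1, 881 and 902 for Hnrnpa2b1 and 4.24 and 6.25 for Gm40706. At 6 hpd they were 35.9 and 32.5, 43.6 and 37.7, 133 and 117, 962 and 882, and 3.93 and 4.31 CPM in the same order, overlapping NT in all 5. Nfe2l1 lay above both NT libraries before that, at 141 and 153 CPM (0.5 hpd), 159 and 153 CPM (1 hpd) and 143 and 140 CPM (2 hpd). None of the 5 was called at any time point in the model of all 10 libraries, and Nfe2l1 was called up at 1 hpd with only the libraries compared (0.27).

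The remaining opposite-strand TUs were faint, and ran from 224 to 13143 bp. The 7 tested ones without a symbol had means of 7.9 to 25.5 fragments over the libraries, and 4 more, among them LOC108168884 over Setdb1 and both TUs over Ehmt1, did not pass the filter and held means of 3.6 to 5.5 fragments. Ehmt1 therefore has no tested TU on its opposite strand. Counts of calls over the 12 tested TUs were 0 at 0.5 and 1 hpd (0 by DESeq2), 1 up at 2 hpd and 1 down at 6 hpd, beside 4.26% of all tested TUs called up at 2 hpd and 9.20% called down at 6 hpd. An unadjusted p under 0.05 was reached by 3, 4, 2 and 2 of the 12 in order of time, beside the 9.61% to 30.6% of all tested TUs. The TU called up is antisense to the start of Cbx5 (4181 bp) and went from 0.88 and 0.51 CPM in NT to 1.72 and 1.87 CPM at 2 hpd, up by 1.35 ± 0.36 on the log2 scale (adjusted p = 0.026, edgeR). The TU called down lies in the body of Setdb1 (762 bp) and went from 2.02 and 3.12 CPM to 1.26 and 0.87 CPM at 6 hpd, with -1.27 ± 0.34 on the log2 scale (adjusted p = 0.018, edgeR). DESeq2 called neither. The call over Cbx5 was lost without 2 hpd replicate 1 (1.41), 2 hpd replicate 2 (1.28) or NT replicate 2 (1.03), and that over Setdb1 without 6 hpd replicate 2 (-1.01) or NT replicate 2 (-0.91), while without NT replicate 1 the TU over Setdb1 was called down at 2 hpd too.

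A wider list of H3K9 methylation genes held 36 symbols, of which 30 were found and tested (Tasor as Fam208a, and Kmt5b as Suv420h1). Setdb2, Pphln1, Pogz, Atrx, Kmt5c and Kdm4b were not found by symbol. In order of time 0, 1, 6 and 7 genes were called up and 0, 1, 2 and 3 down, beside 0.834%, 3.55%, 6.88% and 10.4% of tested TUs with a symbol called up and 0.813%, 3.57%, 5.34% and 7.75% called down. The median log2 fold changes of the list were 0.12, 0.05, 0.20 and 0.10, beside 0.01, 0.02, 0.05 and 0.07 over TUs with a symbol. At 0.5 hpd 2 genes had an unadjusted p under 0.05, beside 10.4% of TUs with a symbol, and DESeq2 called 1 down, Cdyl. These counts rested on single libraries: at 1 hpd 0 were up without NT replicate 1, NT replicate 2, 1 hpd replicate 1 or 1 hpd replicate 2, but leaving out 0.5 hpd replicate 2 gave 2, leaving out 2 hpd replicate 1 gave 3 and leaving out 2 hpd replicate 2 gave 4. At 2 hpd 0 were up without NT replicate 2 or 2 hpd replicate 1, 3 without NT replicate 1, but 11 when 2 hpd replicate 2 was left out, and 1 was down without NT replicate 1 or NT replicate 2. At 6 hpd 2 were up without NT replicate 2, leaving out 6 hpd replicate 1 gave 4 and leaving out 6 hpd replicate 2 gave 3, and 1 was down without NT replicate 1.

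The erasers, which remove the mark, had the most calls at 6 hpd: 5 of 9 were up and 0 down, beside 10.4% up and 7.75% down of TUs with a symbol, and their median log2 fold change was 0.34. Jmjd1c, a JmjC protein of the KDM3 family, went from 495 and 544 CPM in NT to 805 and 1008 CPM at 6 hpd, a log2 fold change of 0.80 ± 0.13, and was already called at 2 hpd (0.60 ± 0.13). Its call at 6 hpd held without any 1 library, and that at 2 hpd failed without either NT replicate 1 (0.53), NT replicate 2 (0.67) or 2 hpd replicate 1 (0.47). Kdm7a, a demethylase of H3K9 and H3K27, rose by 0.54 ± 0.14 at 2 and at 6 hpd, and Phf8, which acts on H3K9 and H4K20, by 0.56 ± 0.14 and 0.55 ± 0.14. Kdm4a, a demethylase of H3K9 and H3K36, and Phf2, of the KDM7 family, were called at 6 hpd only, with 0.34 ± 0.11 and 0.37 ± 0.12. At 2 hpd they stood at 0.28 ± 0.11 and 0.20 ± 0.12. Neither was called in the contrast of 6 against 1 hpd (adjusted p = 0.28 and 0.13, edgeR). These 4 rested on few libraries: without NT replicate 2 the value at 6 hpd was 0.45 for Kdm7a, 0.53 for Phf8, 0.26 for Kdm4a and 0.26 for Phf2, and none of the 4 was called. At 2 hpd the calls of Kdm7a and Phf8 were lost without NT replicate 2 (0.43 and 0.52) or 2 hpd replicate 1 (0.35 and 0.31), and that of Phf8 also without NT replicate 1 (0.60). At 6 hpd Kdm7a also lost its call without 6 hpd replicate 1 (0.50) and Phf8 without 6 hpd replicate 2 (0.47). Kdm4a and Phf2 (adjusted p = 0.046 and 0.044, edgeR) were not called without either 1 hpd library or either 6 hpd library (0.34 to 0.35 and 0.33 to 0.41), nor Kdm4a without 0.5 hpd replicate 1 (0.34). Phf2 was not called by DESeq2 (0.39) or with total counts (0.28) either.

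Among the 9 readers and their partners 2 were called down and 0 up at 6 hpd, beside 7.75% down and 10.4% up of TUs with a symbol. Cdyl, a chromodomain protein that binds methylated H3K9, went from 361 and 365 CPM in NT to 187 and 170 CPM at 1 hpd and 183 and 209 CPM at 6 hpd, its log2 fold changes from 1 hpd on being -1.03 ± 0.13, -0.91 ± 0.13 and -0.89 ± 0.13. It was called at these 3 time points without any 1 library. Uhrf1, a reader of H3K9 methylation and of hemimethylated DNA, fell by 0.39 ± 0.10 at 2 hpd and by 0.39 ± 0.10 at 6 hpd, and lost both calls without NT replicate 1 (-0.38 and -0.37) or NT replicate 2 (-0.40 and -0.38), that at 2 hpd also without 2 hpd replicate 1 (-0.34) or with only the libraries compared (-0.39), and that at 6 hpd without 6 hpd replicate 1 (-0.33). Lbr, an inner nuclear membrane protein that binds HP1, rose by 0.49 ± 0.12 at 1 hpd and 0.53 ± 0.12 at 2 hpd and was not called at 6 hpd. Both calls were lost without NT replicate 2 (0.48 and 0.49), that at 1 hpd also without NT replicate 1 (0.55) or either 1 hpd library (0.46 and 0.53), and the later one without 2 hpd replicate 1 (0.40).

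Of the 7 writer partners, Mecom, a PR domain protein, went from 2.29 and 2.03 CPM in NT to 5.01 and 3.74 CPM at 2 hpd and 8.92 and 9.84 CPM at 6 hpd, a log2 fold change of 2.11 ± 0.23 that held without any 1 library. At 2 hpd it was 1.02 ± 0.24 and not called without 2 hpd replicate 1 (0.79) or NT replicate 2 (0.94). Prdm16, another PR domain protein, went from 12.8 and 9.08 CPM to 6.25 and 5.88 CPM at 6 hpd, a log2 fold change of -0.85 ± 0.19, and was not called without NT replicate 1 (-0.57) or 6 hpd replicate 2 (-0.81). The Mecom TU spans 62282 bp and the Prdm16 TU 54027 bp, and whether they hold the exons of the PR domain was not examined. Of the 5 recruiters, Mphosph8, of the HUSH complex, rose at 2 hpd (0.44 ± 0.12) and Adnp, which binds HP1, at 6 hpd (0.42 ± 0.11). Without NT replicate 2 neither was called (0.38 and 0.38), nor Mphosph8 without NT replicate 1 (0.50) or 2 hpd replicate 1 (0.30) or with only the libraries compared (0.44), nor Adnp without 6 hpd replicate 2 (0.36).

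**Figure D4:**
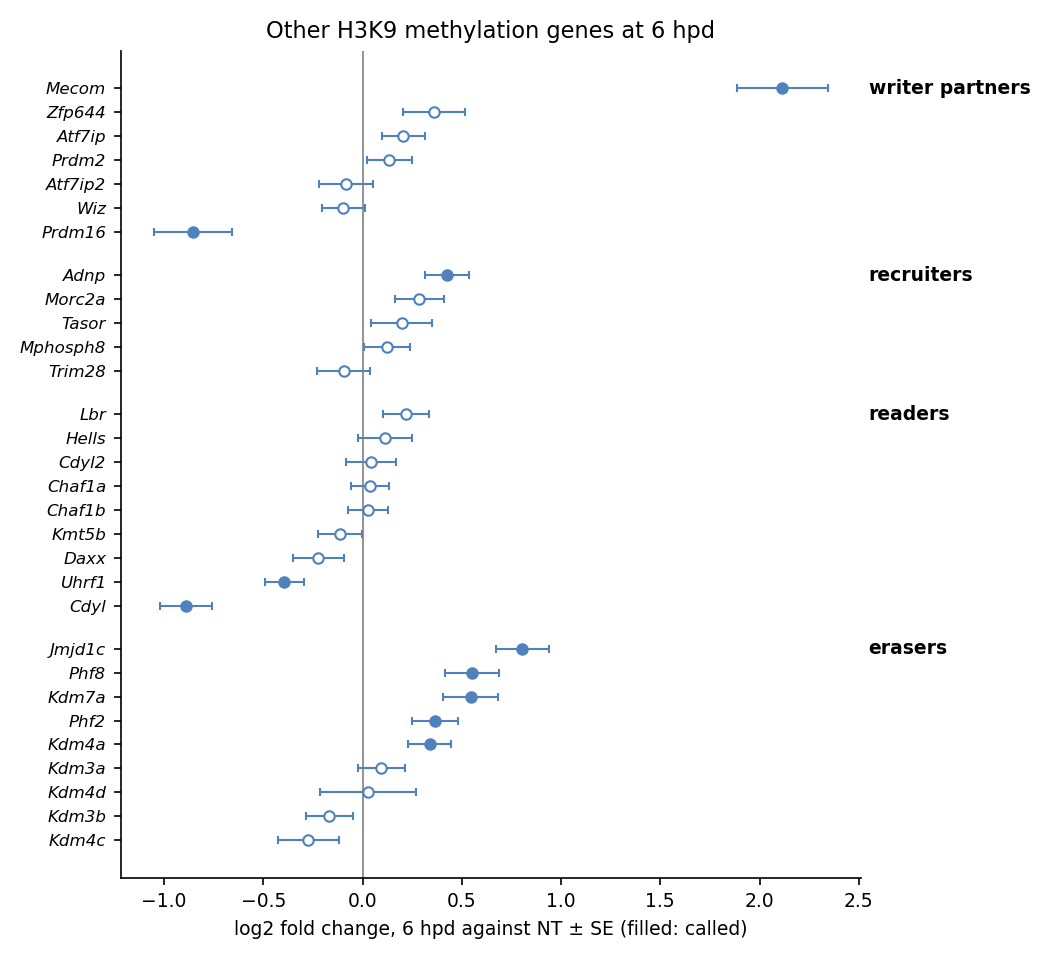
Log2 fold change at 6 hpd against NT (edgeR, bars of 1 SE, n = 2 against 2) of the 30 further H3K9 methylation genes, by role. Filled points were called at an adjusted p under 0.05. They are 7 up, 5 of them erasers, and 3 down.

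On the X chromosome none of the 8 tested TUs with a symbol within 100 kb of Suv39h1 was called up at any time point, and 2 were called down at 1, 2 and 6 hpd. The shares given above for all TUs with a symbol, 0.834% to 10.4% up and 0.813% to 7.75% down, leave 0 of 8 up near the background. The 2 of 8 down were a larger share than the 3.57%, 5.34% and 7.75% called down at 1, 2 and 6 hpd. Tbc1d25, a GTPase-activating protein of the Rab family, stood at 31.2 and 29.4 CPM in NT and 21.3 and 22.8 CPM at 6 hpd, and was called down at 1 hpd (-0.46 ± 0.12), 2 hpd (-0.58 ± 0.12) and 6 hpd (-0.46 ± 0.12). The call at 2 hpd held without any 1 library, and those at 1 and 6 hpd were lost without NT replicate 1 (-0.40 and -0.39) or NT replicate 2 (-0.48 and -0.48), the former also without either 1 hpd library (-0.48 and -0.44) or 6 hpd replicate 1 (-0.44), and the latter without either 6 hpd library (-0.39 and -0.51). DESeq2 called it at 2 hpd but not at 1 or 6 hpd (-0.44 and -0.43), and the call at 1 hpd was also lost with RLE factors (-0.44) or no count filter (-0.44). Glod5, a faint TU with a mean of 12.8 fragments, stood at 1.55 and 1.67 CPM in NT and 0.56 and 0.47 CPM at 6 hpd, and was called down at 1, 2 and 6 hpd (-1.42 ± 0.37, -1.87 ± 0.38 and -1.64 ± 0.38). Without NT replicate 2 it was called at 2 hpd only (-1.34 at 1 hpd and -1.57 at 6 hpd). Its call at 1 hpd was also lost without NT replicate 1 (-1.46), 1 hpd replicate 1 (-1.35) or 1 hpd replicate 2 (-1.50), that at 2 hpd without 2 hpd replicate 1 (-1.60) and that at 6 hpd without 6 hpd replicate 2 (-1.50), and DESeq2 did not call it at 1 or 6 hpd (-1.41 and -1.62). Gm39488, Was, Gm6787, Wdr13, Rbm3os and Rbm3 were not called.

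The 5 TUs with a symbol whose log2 CPM followed that of Suv39h1 most closely over the 10 libraries, of 11937 ranked, were Rap1gap2, Ssbp3, Mtmr4, Clip2 and Bcr, with Pearson's r of 0.97, 0.97, 0.97, 0.97 and 0.96. The 10 points share 5 groups and the same scaling, and these TUs were picked by their values, so no test is given. Rap1gap2, a GTPase-activating protein, went from 41.2 and 28.7 CPM in NT to 84.7 and 71.2 CPM at 6 hpd, and Ssbp3, a partner of LIM domain factors, from 113 and 96.5 CPM to 210 and 211 CPM. The other 3 had log2 fold changes at 6 hpd of 0.41 ± 0.10 (Mtmr4), 0.53 ± 0.13 (Clip2) and 0.34 ± 0.10 (Bcr). Rap1gap2 and Clip2 have no tested TU on the opposite strand. The 4 tested TUs opposite the other 3 were not called at any time point, and had log2 fold changes of -0.46 to 0.17 at 6 hpd.

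Top1, which encodes DNA topoisomerase I, and its opposite-strand TU are the other pair that the study shows, and their values are likewise a description. Top1 went from 253 and 223 CPM in NT to 334 and 295 CPM at 1 hpd and 336 and 331 CPM at 6 hpd, with log2 fold changes of 0.40 ± 0.15 and 0.49 ± 0.15. Its opposite TU (18746 bp) went from 65.2 and 61.3 CPM to 2.82 and 2.16 CPM at 1 hpd and 0.63 and 0.70 CPM at 6 hpd, with log2 fold changes of -4.67 ± 0.17 and -6.55 ± 0.21. A second TU opposite Top1, with a mean of 10 fragments, was not called.

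Among all genes whose opposite-strand TU was called down, calls down outnumbered calls up at each time point. Of 14997 tested TUs with a symbol, 445 had an opposite-strand TU called down at 1 hpd, and of these 8 (1.8%) were called up and 140 (31.5%) down, with a median log2 fold change of -0.25. Of the 4933 without a tested opposite-strand TU 2.64% were up and 3.2% down. Of the 9619 with a tested opposite-strand TU of which none was called down 4.1% were up and 2.46% down. At 0.5 hpd 98 genes had an opposite TU called down, of which 0 were up and 16 down (16.3%). Of genes without a tested opposite TU 0.365% were up and 0.669% down then. Where tested opposite TUs were present and none was called down, 1.07% were up and 0.732% down, so 0 of 98 up stands near these shares. At 2 hpd 29 of 677 (4.28%) were up and 214 (31.6%) down, beside 6.57% and 5.13% of genes without a tested opposite TU. At 6 hpd 67 of 1117 (6%) were up and 336 (30.1%) down, beside 11.7% and 7.05% of genes without a tested one. With opposite TUs that have no symbol, as at Suv39h1, 4 of 215 genes (1.86%) were up and 71 (33%) down at 1 hpd. Of 4657 genes with such TUs of which none was called down, 5.95% were up and 3.31% down. The pair at Suv39h1 is counted in, and both TUs of a pair of genes are counted, each as the other's opposite, and all comparisons share the NT libraries, so these shares are a description with no test.

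**Figure D5:**
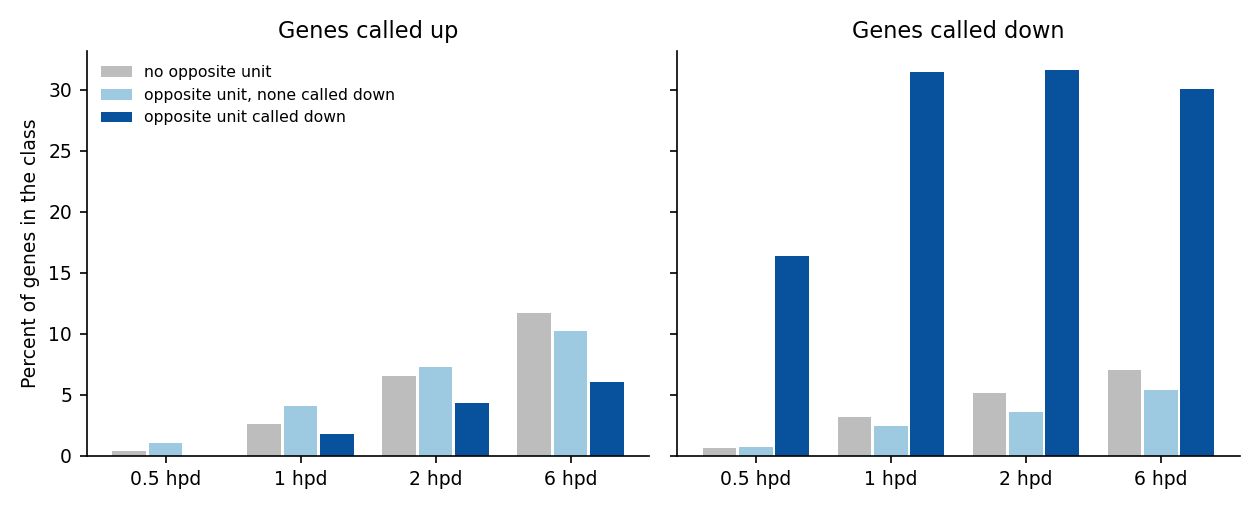
Percent of tested genes called up (left) or called down (right) at each time point, by the state of their opposite-strand TUs. At 1 hpd 1.8% of the 445 genes with an opposite TU called down were up and 31.5% were down. The 4933 genes with no tested opposite TU had 2.64% up and 3.2% down.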

How the data were processed

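TT_chem-seq was analysed from fragment counts per TU, as deposited by the authors, raw and without normalization, for 10 libraries in 5 groups of 2. Per the methods of the study and the submitters' processing notes, alignment by the authors was to mm10 (bwa 0.7.17-r1188), followed by filtering in samtools 1.10. The authors then removed duplicates with Picard 2.12.0, split the reads by strand, and defined TUs on pooled data with a hidden Markov model. A TU that reads through into a neighbour or past a gene's end is counted whole, and strand was kept, so TUs of the 2 strands were counted apart. The TU positions, deposited with the counts, are printed as given.

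A TU was tested where 2 or more libraries held over 10 of its fragments (28459 of 40779), as in the study. Counts were fitted in edgeR 4.0.16 (R 4.3.3) with TMM scaling, all 10 libraries in 1 model and a coefficient for each group, and each time point was tested against NT, and 6 against 1 hpd, with the quasi-likelihood F-test and Benjamini-Hochberg adjustment over all tested TUs, at 0.05. Log2 CPM used a prior count of 2. Opposite-strand TUs overlap by at least 1 bp. Depth was 11131490 to 25854106 fragments per library, and replicate pairs differed by more than counting error (chi-square per degree of freedom 2.69 to 9.03). The fit was tested on simulated data.

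The members, gene lists and tests were chosen with earlier results of these data known. Named TUs were the 8 genes, all TUs opposite to them, the 12 genes of the wider list with the smallest p of the joint test over time, tested TUs with a symbol within 100 kb of Suv39h1, the 5 TUs with a symbol and a mean of at least 50 counts most correlated with Suv39h1, Sox2, and Top1 with its opposite TU. Sequences come from RefSeq (GRCm38.p6), where all 8 symbols matched. Alternatives were DESeq2 1.42.0, RLE factors or total counts for TMM, dropping the count filter or raising it to an average of 50 counts, fitting only the libraries of a contrast, a replicate block, an overlap of 50%, and leaving out each library in turn.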

Additional observations from a re-analysis of the deposited data

Results flagged for a closer look

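By edgeR's test of 6 against 1 hpd over all tested TUs, the change against NT differed between these time points for 3 of the 30 genes of the wider list, 2 higher and 1 lower at 6 hpd, beside 2.98% higher and 3.32% lower of all tested TUs with a symbol. Mecom was higher at 6 hpd by a log2 difference of 2.23 ± 0.23 (adjusted p = 4.1e-05), and no alternative run lost its call. Jmjd1c was higher by 0.61 ± 0.13 (adjusted p = 0.015), and was not called without either 1 hpd library (0.60 and 0.61) or 6 hpd replicate 2 (0.43). Prdm16 was lower by -0.77 ± 0.19 (adjusted p = 0.032), and was not called without either 1 hpd library (-0.60 and -0.93) or either 6 hpd library (-0.82 and -0.72). The TU opposite Suv39h1 had a log2 difference of -0.77 ± 0.14 and that opposite Top1 one of -1.88 ± 0.29. Both were chosen for their fall in these libraries, so these values are a description with no test. Each group has 2 libraries, so no library was tested for standing apart.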

How the results depend on the processing

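The rise of Suv39h1 and the fall of its opposite TU kept their direction under the alternatives run. In settings that leave a group with 1 library, that library is assumed to vary like the others. Scaling to total counts shifted the median over all tested TUs by -0.12 (log2) at 2 hpd, and by less at the other time points, and turned small values: Setdb1 at 2 hpd (-0.0037) and 6 hpd (-0.0097), Ehmt2 at 1 hpd (-0.035) and 2 hpd (-0.064), and Cbx1 at 1, 2 and 6 hpd (-0.029, -0.059 and -0.030). Cbx3 at 6 hpd became 0.0096 under DESeq2, 0.0097 with RLE factors and 0.0017 without a count filter. Leaving out a library gave Ehmt2 -0.072 to 0.172 at 1 hpd and -0.040 to 0.119 at 2 hpd, Cbx1 -0.033 to 0.147 at 1 hpd and -0.100 to 0.197 at 2 hpd, and Cbx3 -0.046 to 0.046 at 6 hpd.

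Of the other 7 genes, fitting only the libraries compared called 2 up at 1 hpd (Ehmt1, 0.34, and Cbx5, 0.26) and 1 up at 6 hpd (Cbx5, 0.32), total counts called 1 down at 2 hpd (Cbx3, -0.27), and leaving out a library gave 0 to 1 up at 2 hpd and 0 to 1 up at 6 hpd. Of their opposite TUs, the count up at 2 hpd was 0 with DESeq2, 0 among TUs averaging 50 counts or more and 0 with an overlap of 50%, and 0 to 1 without a library. The count down at 6 hpd was 0 with DESeq2, 0 among TUs averaging 50 counts or more and 0 to 1 without a library, and down at 2 hpd 0 to 1 without a library. With only the libraries compared 1 was up at 1 hpd (Nfe2l1, 0.27) and 1 lower at 6 than at 1 hpd (Nfe2l1, -0.32), also called with a mean of at least 50 counts (1 TU, -0.36).

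Of the wider list, down at 0.5 hpd were 1 with DESeq2, 1 without a count filter, 1 with only the libraries compared, 1 with total counts and 0 to 1 without a library. At 1 hpd up were 2 with a mean of at least 50 counts, 9 with only the libraries compared and 0 to 4 without a library, and down 3 with only the libraries compared and 4 with total counts. At 2 hpd up were 0 to 11 without a library, and down 1 with only the libraries compared and 1 to 2 without a library. At 6 hpd 2 to 8 were up and 1 to 3 down without a library. From 1 to 6 hpd 4 were higher and 2 lower with only the libraries compared, and 1 to 2 higher and 0 to 1 lower without a library. With an overlap of 50%, 0.547% of genes without a tested opposite TU were up at 0.5 hpd, and 10.6% of those with one called down were down. The cause of these shifts was not tested.

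No source says what the replicate numbers mark, so the main model has no block. Deviations of same-numbered libraries correlated at 0.20 to 0.66 in 8 of the 10 pairs of groups, but at 0.05 between 0.5 and 6 hpd and 0.06 between 2 and 6 hpd. With a replicate block the calls at 6 hpd were 3394 up and 4036 down, against 1880 and 2618 without it. Of the other 7 genes 2 were up at 2 hpd (Ehmt1, 0.30, and Cbx5, 0.29) and 1 at 6 hpd (Cbx5, 0.30), of their opposite TUs 1 was down at 2 hpd and 1 lower at 6 than at 1 hpd (Nfe2l1, -0.32), and of the wider list 1 was down at 0.5 hpd (0 without the block), 6 up at 1 hpd (1 without it) and 11 up at 2 hpd (6 without it). Over all alternatives, 120 values of single TUs lost a call, 26 gained one, 17 changed sign, and 1175 kept their direction and their side of the threshold.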
